A study of Mus musculus with 40 samples.

Results

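Intracisternal A particle (IAP) internal sequences are the protein-coding bodies of a family of mouse endogenous retroviruses, here all repeat copies whose annotated family name begins with IAP and ends in -int or _I. The rule took 14888 of the 3799629 single transposable element (TE) copies counted from uniquely mapped reads, and the same 10 families among the 1243 families of a second table in which reads with many matching positions were kept. The families were IAPEz-int (7614 copies), IAPEY3-int (2045), IAPLTR3-int (1751), IAP-d-int (1198), IAPEy-int (787), IAPEY4_I (454), IAP1-MM_I (405), IAPEY5_I (321), IAPLTR4_I (219) and IAPA_MM-int (94). Fragments on the same strand within 1000 bp of each other formed 5676 loci, 4557 of which had an IAP long terminal repeat (LTR) within 200 bp of their 5′ end. By position, 10991 copies were intergenic, 3268 intronic and 629 overlapped an annotated exon, and 2966 (19.9%) lay on chromosome Y.

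The 40 total RNA libraries were made from mouse embryonic stem cells with X and Y chromosomes (mES cells) and from the epiblast-like cells (EpiLCs) they give rise to. mES cells were held in the naive state with LIF, 3 µM CHIR-99021 and 1 µM PD0325901 (inhibitors of GSK3 and MEK), and EpiLCs, a culture model of the epiblast around implantation, were collected after 48 h of culture with activin A (12 ng/mL) and FGF (20 ng/mL). At each stage 8 wild type (WT) libraries were set against 4 libraries of each mutant: LBRKO cells, with a disrupted gene for the lamin B receptor, TKO cells, which lack all lamins through loss of *Lmna*, *Lmnb1* and *Lmnb2*, and QKO cells, in which *Lbr* was disrupted on the TKO background. Each library came from 1 culture well, so the spread between libraries of a mutant is between wells and may be technical. QKO cells were 1 clone derived from TKO cells, and 1 of their *Lbr* alleles carries an in-frame deletion beside a frameshift in the other. Several LBRKO clones were made, and the labels do not say which or how many of them gave the libraries. TKO and WT cells were lines from littermates, so lamin genotype and line of origin cannot be told apart. By the study's karyotyping, TKO cells were trisomic for chromosome 8 with a part lacking chromosome Y, and minor parts of the WT cells had abnormal karyotypes.

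IAP elements are retrovirus-like: each intact provirus has an LTR at both ends, and transcription from the 5′ LTR yields the RNA that is both translated and copied back into DNA. The internal sequence holds the gag, protease and polymerase genes, and IAPEz elements lack an envelope gene, so that they move only within the cell. IAPs are among the most mobile families of the mouse genome, and in early embryonic cells they are kept silent by KRAB zinc finger proteins, the corepressor TRIM28, the H3K9 methyltransferase SETDB1 and DNA methylation. The comparisons ask what happens to their RNA when proteins that tether heterochromatin to the nuclear periphery are lost.

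Counts assigned to genes ran from 22.6 to 48.9 M per library, and counts on single TE copies from 2.76 to 7.83 M. WT replicates 1 to 4 had 25.4 to 33.5 M gene counts and WT replicates 5 to 8 had 39.4 to 48.9 M. Levels are in CPM, counts scaled to a common library size after TMM adjustment. The mean of *Lmnb1* in mES cells was 514.6 CPM for WT, 8.47 CPM for TKO and 13.8 CPM for QKO, while *Lbr*, whose disruption leaves the transcript, stood at 208.7 ± 64.4 CPM in LBRKO, 237.4 ± 1.49 CPM in QKO (SD, n = 4 each) and 371.9 ± 20.6 CPM in WT (n = 8). The summed level of 8 naive markers was 3903.3 to 5638.1 CPM in mES libraries and 120.8 to 308.5 CPM in EpiLC libraries, and that of 7 epiblast-like markers 175 to 276 CPM and 3014.8 to 4897 CPM. A row was called changed when its Benjamini-Hochberg adjusted p from edgeR's quasi-likelihood test, over all rows of its table, was under 0.05 and its fold change over 2. Rose and fell below refer to such calls. Errors are SD for CPM and SE for log2 fold changes.

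The sequences below are the first 120 bases, 5′ to 3′, of 8 loci on which the results turn, read from the GRCm39 genome and named by the copy whose values are given. The loci of IAPEy-int_dup236 and IAP1-MM_I_dup385 begin with another fragment. They are shown because they open the provirus body next to the 5′ LTR, where the primer for reverse transcription binds. Capitals mark TGGTGCC, the 7 letters that pair with the 3′ end of phenylalanine tRNA, the known IAP primer. The 8 loci are IAPEy-int_dup179 at chr7:6619682-6619801 (plus strand), IAPEY3-int_dup444 at chr7:6608570-6608689 (plus), IAPEy-int_dup236 at chr9:13669194-13669313 (minus), IAP1-MM_I_dup385 at chr17:34762788-34762907 (plus), IAPEz-int_dup2462 at chr6:28928878-28928997 (minus), IAPEz-int_dup1013 at chr2:154196577-154196696 (plus), IAPEz-int_dup3247 at chr8:23041555-23041674 (plus) and IAPEz-int_dup3420 at chr8:95347994-95348113 (minus).
IAPEy-int_dup179: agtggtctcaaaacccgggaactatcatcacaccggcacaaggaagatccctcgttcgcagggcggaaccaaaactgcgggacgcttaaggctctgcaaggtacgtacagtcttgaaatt
IAPEY3-int_dup444: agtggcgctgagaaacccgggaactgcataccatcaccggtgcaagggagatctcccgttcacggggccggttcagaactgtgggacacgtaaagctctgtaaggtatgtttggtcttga
IAPEy-int_dup236: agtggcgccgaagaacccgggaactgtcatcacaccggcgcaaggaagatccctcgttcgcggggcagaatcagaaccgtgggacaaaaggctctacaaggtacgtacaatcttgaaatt
IAP1-MM_I_dup385: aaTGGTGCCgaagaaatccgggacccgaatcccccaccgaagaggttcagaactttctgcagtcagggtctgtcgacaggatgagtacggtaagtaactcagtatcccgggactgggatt
IAPEz-int_dup2462: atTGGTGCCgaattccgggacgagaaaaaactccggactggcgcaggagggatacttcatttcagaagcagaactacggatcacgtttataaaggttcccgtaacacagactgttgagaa
IAPEz-int_dup1013: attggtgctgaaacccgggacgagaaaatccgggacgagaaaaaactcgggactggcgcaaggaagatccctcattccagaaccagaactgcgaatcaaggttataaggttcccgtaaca
IAPEz-int_dup3247: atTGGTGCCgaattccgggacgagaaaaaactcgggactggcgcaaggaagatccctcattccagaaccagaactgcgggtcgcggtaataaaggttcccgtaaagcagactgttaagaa
IAPEz-int_dup3420: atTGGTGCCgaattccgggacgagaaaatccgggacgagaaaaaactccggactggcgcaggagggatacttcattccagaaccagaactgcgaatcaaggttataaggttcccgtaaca

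The motif TGGTGCC, searched on both strands in the first 60 bases of each locus, was found on the sense strand at 45.8% of the 5676 loci, 56.5% of the 4557 loci with a 5′ LTR and 2.06% of the 1119 loci without. On the antisense strand it was found at 0.282% of all loci. Loci with a 5′ LTR were also grouped by the family of their longest fragment. The motif was present in 69% for IAPEz-int, 60.1% for IAPEy-int, 58.2% for IAPLTR3-int, 52.8% for IAP1-MM_I and 5.67% for IAPEY3-int. In the 4 shown sequences that hold it, it began at base 3. At the best offset of up to 10 bases without gaps, 91.7% of bases were equal between IAPEz-int_dup1013 and IAPEz-int_dup3420 and 85.8% between IAPEz-int_dup2462 and IAPEz-int_dup3247. The other 4 pairs of IAPEz-int starts had 38.3% to 40.8%, and IAPEy-int_dup179 and IAPEy-int_dup236 had 61.9%. IAPEz-int_dup1013 and IAPEz-int_dup3420 repeat the stretch ccgggacgagaaaa, which IAPEz-int_dup2462 and IAPEz-int_dup3247 do not. The shift this makes lay outside the offsets tried. Values without gaps are therefore not a measure of how far the starts have diverged. A match says only that these letters are present.

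Reads were kept by family in the multimapped table, which was fitted together with the genes, and 1142 of the 1243 families passed the filter on low counts, including all 10 IAP internal families. IAPEz-int was by far the most abundant member and held 72.7% to 84.9% of the summed level of the 10 families in the group means. In mES cells the summed level was 552 ± 56.2 CPM for WT, 542 ± 44.1 CPM for LBRKO, 561 ± 20.7 CPM for TKO and 716.3 ± 45.7 CPM for QKO. In EpiLCs it was 392.5 ± 30.3 CPM in WT, 463.1 ± 38.4 CPM in LBRKO, 385.7 ± 22.4 CPM in TKO and 662.6 ± 16.8 CPM in QKO. As a share of all counts this was 0.0553% in WT and 0.0732% in QKO mES cells, and 0.0386% and 0.0672% in EpiLCs. As a share of the counts of all TE families the order was the reverse in mES cells, with 0.676% to 0.783% in WT libraries and 0.562% to 0.599% in QKO. In EpiLCs these shares overlapped, with 0.425% to 0.511% in WT and 0.475% to 0.501% in QKO. In CPM the QKO libraries were the highest of their stage, and no test was made of the sum.

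**Figure D1:**
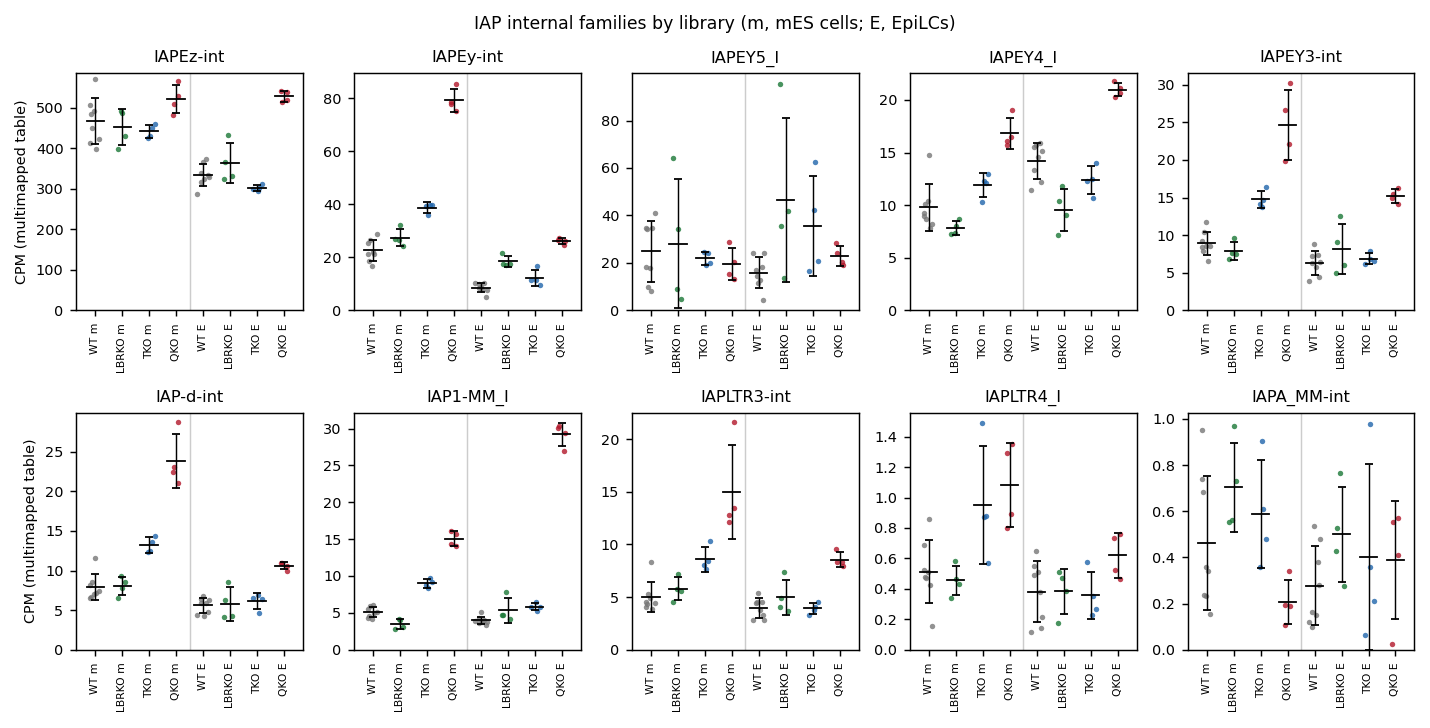
CPM of each IAP internal family in the multimapped table (y axis, linear, from 0) in every library of the 8 groups (x axis; m, mES cells; E, EpiLCs); points are libraries, bars the mean and SD. QKO libraries stand highest for IAPEy-int and IAP1-MM_I at both stages, while IAPEY5_I varied from 4.40 to 24.2 CPM within WT EpiLCs alone.

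The joint loss of lamins and intact LBR in the naive state was read from QKO against WT mES cells. Of the 10 families 6 rose, where 25.1% of all 1142 families did. They were IAPEy-int, IAP-d-int, IAPLTR3-int, IAP1-MM_I, IAPEY3-int and IAPLTR4_I. The median log2 fold change was 1.27 over the 10 members and 0.82 over all families, so the changes below are to be read against a general rise of that size. IAPEz-int, the most abundant family, stood below that median. In bulk RNA, more cells that transcribe a family and more RNA per cell cannot be told apart.

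IAPEy-int, an IAP variant named after copies on chromosome Y, had 16.7, 21.7 and 28.8 CPM as the lowest, median and highest of the WT mES libraries. It had 77.7, 75.1, 85.4 and 78.6 CPM in the QKO mES libraries. Every QKO library was above every library of the other mES groups, and the log2 fold change against WT was 1.81 ± 0.13 (3.51-fold, adjusted p = 4.59e-15, edgeR). TKO mES libraries, at 39.5, 35.8, 39.9 and 39.8 CPM, lay between both, at a change of 0.78 that was under 2-fold. LBRKO mES libraries, at 24.1, 27.0, 26.7 and 32.1 CPM, overlapped WT.

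IAP1-MM_I, a family with few copies, went from 4.17, 5.03 and 6.03 CPM (lowest, median and highest WT library) to 14.4, 14.1, 15.7 and 16.1 CPM in QKO mES cells (1.57 ± 0.12, adjusted p = 4.81e-14, edgeR). TKO libraries were at 8.82, 8.36, 9.78 and 9.13 CPM, again between WT and QKO without overlap. LBRKO libraries, at 3.03, 2.78, 4.13 and 3.99 CPM, were all below the WT libraries, and this difference of -0.54 ± 0.13 (adjusted p = 0.0016, edgeR) was under 2-fold.

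IAP-d-int had 6.49, 7.27 and 11.6 CPM in WT and 22.4, 21.1, 28.7 and 23.1 CPM in QKO mES libraries (1.59 ± 0.15, adjusted p = 1.1e-11, edgeR). Of its 602 loci 139 had an LTR of an IAP-named family at the 5′ end, and LTRs of other names were not searched for. IAPLTR3-int, with 1280 of its 1751 copies on chromosome Y, had 3.89, 4.50 and 8.36 CPM in WT and 12.1, 13.5, 21.6 and 12.8 CPM in QKO (1.59 ± 0.18). IAPEY3-int, with 927 of 2045 copies there, had 6.54, 8.53 and 11.7 CPM in WT and 19.8, 22.1, 30.2 and 26.6 CPM in QKO (1.47 ± 0.17). In these 3 families every QKO library was above every WT library, and the third QKO library was the highest. IAPLTR4_I, a scarce family, rose by the test (1.06 ± 0.33, adjusted p = 0.00782, edgeR) at 0.154, 0.492 and 0.861 CPM in WT and 1.29, 0.895, 1.35 and 0.803 CPM in QKO, where the groups overlapped.

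The remaining 4 families were not called in QKO mES cells. IAPEz-int had 397.8, 465.8 and 570.5 CPM as the lowest, median and highest WT library and 480.7, 528.0, 564.8 and 509.9 CPM in QKO (0.16 ± 0.08, adjusted p = 0.089, edgeR), so the groups overlapped. IAPEY4_I was at 7.87, 9.15 and 14.8 CPM in WT and 15.7, 16.5, 19.0 and 16.1 CPM in QKO, above every WT library at less than 2-fold (0.78). IAPA_MM-int had a lower fitted level in QKO, at 0.154, 0.350 and 0.954 CPM in WT and 0.105, 0.339, 0.188 and 0.194 CPM in QKO (-1.17, adjusted p = 0.0936, edgeR), and so had IAPEY5_I (-0.35), whose WT libraries alone ran from 8.22 to 40.9 CPM.

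In QKO EpiLCs the order of the families was different, with IAP1-MM_I first and IAPEz-int above WT. Of the 10 families 4 rose, against 26.0% of all families, and the medians were 0.81 for the members and 0.85 for all families. The 4 were IAP1-MM_I, IAPEy-int, IAPEY3-int and IAPLTR3-int.

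IAP1-MM_I had 3.38, 3.83 and 5.06 CPM (lowest, median, highest) in WT EpiLCs and 30.4, 29.4, 27.0 and 30.1 CPM in QKO EpiLCs (2.88 ± 0.12, 7.36-fold, adjusted p = 4.48e-22, edgeR). TKO EpiLCs had 5.25, 5.84, 5.84 and 6.41 CPM and LBRKO EpiLCs 4.67, 4.17, 7.83 and 4.73 CPM. Only the QKO libraries stood apart from the rest of the EpiLC libraries. Every TKO library was above every WT library too, at a change under 2-fold (0.56 ± 0.13, adjusted p = 0.00177, edgeR), and overlapped LBRKO. The QKO change exceeded the sum of the LBRKO and TKO changes on the log2 scale by 1.89 ± 0.19 (adjusted p = 1.17e-09, edgeR) in EpiLCs and by 1.28 ± 0.19 (adjusted p = 2.75e-06, edgeR) in mES cells.

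IAPEy-int went from 4.98, 8.62 and 10.3 CPM in WT EpiLCs to 27.4, 26.2, 24.7 and 26.5 CPM in QKO EpiLCs (1.62 ± 0.13, adjusted p = 2.57e-13, edgeR). LBRKO EpiLCs, at 21.7, 17.6, 17.1 and 17.5 CPM, were also all above WT, and TKO EpiLCs had 16.7, 9.44, 11.3 and 11.4 CPM, overlapping WT. The departure of IAPEy-int from the sum of both mutants was -0.01 ± 0.21 in EpiLCs. IAPEY3-int rose to 15.4, 14.1, 16.3 and 15.0 CPM from 3.97, 6.39 and 8.88 CPM in WT (1.27 ± 0.17), and IAPLTR3-int to 8.33, 7.95, 8.29 and 9.60 CPM from 2.86, 4.12 and 5.38 CPM (1.10 ± 0.18), both without overlap.

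IAPEz-int was at 287.6, 332.1 and 372.4 CPM in WT EpiLCs and at 514.0, 537.2, 519.1 and 541.3 CPM in QKO EpiLCs. Every QKO library was above every WT library, at a change under 2-fold and below the median of all families (0.66 ± 0.08, adjusted p = 1.53e-09, edgeR). TKO EpiLCs, at 302.3, 311.7, 298.7 and 295.5 CPM, lay within the WT range. IAP-d-int (10.9, 10.6, 10 and 11.0 CPM in QKO against 4.21, 5.89 and 6.83 CPM in WT, 0.93) and IAPEY4_I (20.3, 21.1, 20.7 and 21.8 CPM against 11.4, 14.9 and 15.9 CPM, 0.56) also lay above WT at less than 2-fold. IAPLTR4_I (0.69), IAPEY5_I (0.54) and IAPA_MM-int (0.43) were not called.

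**Figure D2:**
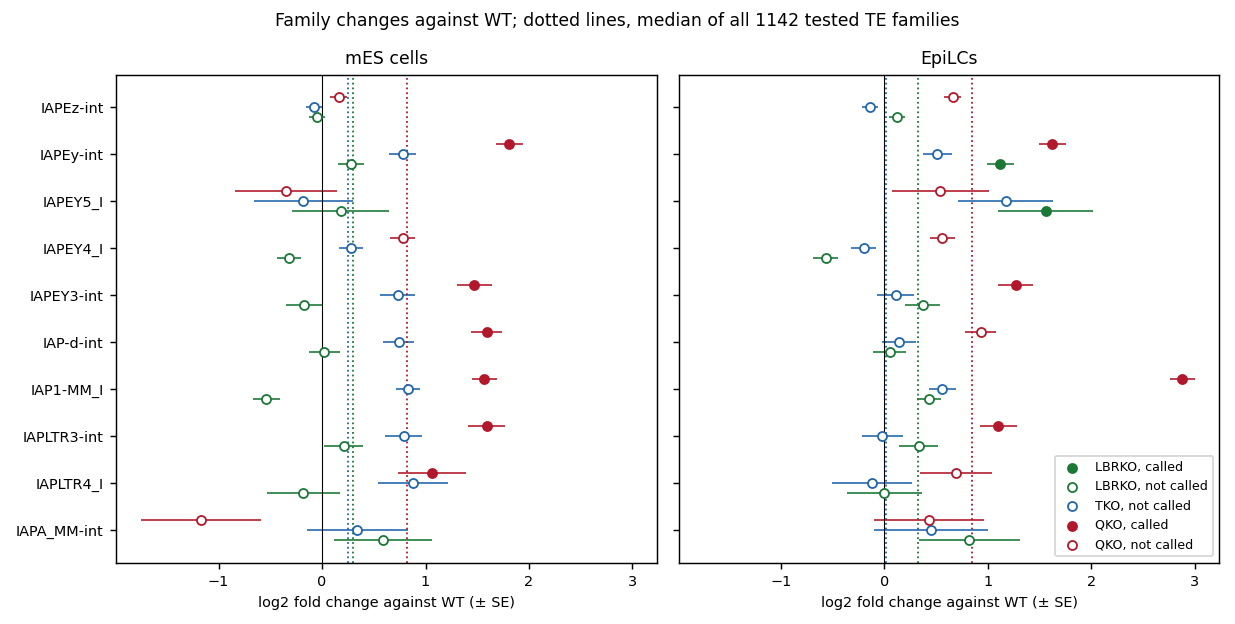
Log2 fold change against WT of the same stage with its SE (x axis) for each IAP internal family (y axis), by genotype; filled points are called, open ones are not, and dotted lines give the median of all 1142 tested families for each genotype. In QKO, IAPEy-int and IAP1-MM_I lie right of the median of all families at both stages, and IAPEz-int lies left of it.

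The single mutants were compared with WT to see how far loss of LBR or of the lamins alone moved these families. In LBRKO mES cells 0 of 10 families rose (0 also over 2-fold with p under 0.05 before adjustment), against 0.525% of all families. In TKO mES cells it was again 0 of 10 (0 at the unadjusted p) against 2.10% of all families, but the median of the members was 0.74 against 0.25 over all families. IAPLTR4_I had the highest value, at 0.88 (adjusted p = 0.0531, edgeR). IAP1-MM_I, IAPLTR3-int, IAPEy-int, IAP-d-int and IAPEY3-int followed at 0.73 to 0.83, with adjusted p from 1.4e-06 to 0.00135 (edgeR), each under 2-fold.

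In LBRKO EpiLCs 2 of 10 families rose, IAPEy-int (1.12 ± 0.13, adjusted p = 1.75e-08, edgeR) and IAPEY5_I (1.56 ± 0.46, adjusted p = 0.00927, edgeR), against 0.876% of all families. IAPEY5_I had 95.2, 42.0, 13.8 and 35.6 CPM in LBRKO EpiLCs and 4.40 to 24.2 CPM in WT, so the groups overlapped, and without the first LBRKO library its change was 0.96 (adjusted p = 0.153, edgeR). Of its multimapped counts only 2.06 per 100 were matched by unique ones, so nearly all of its reads fitted several places. In TKO EpiLCs 0 of 10 families rose (1 over 2-fold with p under 0.05 before adjustment), against 0.701% of all families, and the largest values besides IAPEY5_I were those of IAP1-MM_I (0.56) and IAPEy-int (0.51).

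QKO was set against TKO to isolate the step of disrupting *Lbr* without lamins. In mES cells 1 of 10 families rose, IAPEy-int (1.03 ± 0.15, adjusted p = 2.28e-06, edgeR), against 4.47% of all families. In EpiLCs 4 of 10 rose, against 21.8%: IAP1-MM_I (2.32 ± 0.15, adjusted p = 9.41e-16, edgeR), IAPEY3-int (1.15), IAPLTR3-int (1.12) and IAPEy-int (1.11). IAPEz-int differed by 0.81 ± 0.09 there (adjusted p = 2.09e-09, edgeR), under 2-fold and close to the median of all families (0.84). A change in QKO above the sum of both single changes was called for 1 of 10 families in mES cells, IAP1-MM_I, against 2.63% of all families. In EpiLCs it was called for 2 of 10, IAP1-MM_I and IAPEY4_I (1.33 ± 0.19, adjusted p = 7.21e-07, edgeR), against 4.38%. A change below the sum was called there for 1 of 10, IAPEY5_I (-2.19 ± 0.72, adjusted p = 0.0223, edgeR), against 0.175% of all families. That call was lost without the first LBRKO or the first TKO EpiLC library (-1.56, adjusted p = 0.124, and -1.75, adjusted p = 0.0831, edgeR), and with summed unique counts the value was positive (1.29, adjusted p = 0.114, edgeR). For IAPEY4_I the LBRKO EpiLC libraries, at 7.12, 9.02, 11.8 and 10.4 CPM, lay mostly below WT (-0.57, adjusted p = 4.63e-04, edgeR).

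The passage from mES cells to EpiLCs lowered IAPEy-int in WT (-1.41 ± 0.11, adjusted p = 4.52e-14, edgeR), the 1 family of 10 that fell, against 2.19% of all families. IAPEz-int changed by -0.49 in WT. In LBRKO 0 of 10 fell (0 over 2-fold with p under 0.05 before adjustment), against 0.963%. In TKO 5 of 10 fell, against 4.64%: IAPEy-int (-1.67), IAPLTR4_I (-1.42), IAPLTR3-int (-1.13), IAP-d-int (-1.11) and IAPEY3-int (-1.11). In QKO 2 of 10 fell, IAPEy-int (-1.60) and IAP-d-int (-1.16), against 3.33%, while IAPEz-int stayed at 0.02 and IAP1-MM_I stood at 0.96. Whether the QKO change differed between the stages was tested by an interaction term: it was higher in EpiLCs for 1 of 10 families, IAP1-MM_I (1.31 ± 0.17, adjusted p = 1.29e-07, edgeR), against 0.525% of all families. For IAPEz-int this difference was 0.51 ± 0.11 (adjusted p = 3.92e-04, edgeR), under 2-fold.

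Levels of the families across the 40 libraries are described by correlations of log2 CPM, with n = 40, and the points share stages, genotypes and scaling. IAPEY3-int and IAPLTR3-int had r = 0.95, and IAP-d-int had 0.93 with each of them. IAPEY5_I went with none of the others (-0.27 to 0.15). The 5 TE families outside the members whose levels were most like those of IAPEz-int were its own promoter family IAPLTR1_Mm (0.90), RLTR17 (0.88), RMER19B2 (0.87), RLTR16B_MM (0.87) and LTRIS4A (0.86).

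The multimapped table does not say which copies were read, so the same families were followed in the table of single copies, which holds reads with 1 alignment only. In all libraries together 7839 of the 14888 copies had 0 counts and 11608 had under 10 counts. For IAPEz-int 31 unique counts were found per 100 multimapped ones, and for IAPEy-int 52.3. For IAP1-MM_I the number was 375 and for IAPEY3-int 167.3, so these families had more counts here than in the multimapped table. Of the unique counts of IAP1-MM_I 83.9%, and of those of IAPEY3-int 67.6%, fell on copies that overlap an exon, and the 3 most-read copies of each family held 71.6% and 67.1%.

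Those most-read copies are short, have no IAP LTR beside them and sit in exons of host genes. IAP1-MM_I_dup350 (272 bp, chromosome 13, 111624444 to 111624715, GRCm39) and IAP1-MM_I_dup351 (120 bp, from 111624764 to 111624883) lie in an exon of *Gpbp1*, which encodes a GC-rich promoter binding protein, and IAPEY3-int_dup1935 (80 bp, chromosome 16, 91472330 to 91472409) lies in an exon of *Son*, which encodes an RNA splicing protein. IAP1-MM_I_dup350 was at 15.4, 16.2 and 18.8 CPM (lowest, median, highest) in WT mES cells and at 17.3, 16.2, 18.6 and 18.8 CPM in QKO, with overlap. IAP1-MM_I_dup351 had means of 9.14 CPM in WT and 10 CPM in QKO mES cells, and IAPEY3-int_dup1935 13.3 and 11.5 CPM. With the copies inside genes left out, the log2 fold change of the summed unique counts in QKO was 1.58 in mES cells and 2.90 in EpiLCs for IAP1-MM_I, against 0.49 and 1.14 with them, and 1.69 and 1.30 against 0.42 and 0.31 for IAPEY3-int.

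Of the 14888 copies 290, in 229 loci, passed the filter on low counts, out of 131824 TE copies tested: 173 of IAPEz-int, 32 of IAPEy-int, 23 of IAP1-MM_I, 17 of IAPLTR3-int, 16 of IAPEY3-int, 14 of IAPEY4_I, 13 of IAP-d-int, 1 each of IAPLTR4_I and IAPA_MM-int, and 0 of IAPEY5_I. The copies that passed were longer than the rest, with a median of 2668 bp against 694 bp over all 14888, and 32.4% of them overlapped an exon against 4.22%. Copies were scaled by the library factors of the gene table. The counts below describe the copies that passed, which had to be read in at least 1 group.

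In QKO mES cells 92 of 290 copies rose (31.7%), where 24.2% of all tested copies did, and 27 fell (9.31%), where 1.36% of all did. In QKO EpiLCs 94 rose (32.4%, against 29.3%) and 13 fell (4.48%, against 1.40%). The medians were 0.82 for IAP copies and 0.77 for all copies in mES cells, and 0.86 and 0.81 in EpiLCs. When the scaling was taken from the single copies themselves, the median of all copies was 0.02 in mES cells and 0.03 in EpiLCs, and the split became 41 risen and 50 fallen IAP copies in mES cells and 48 and 28 in EpiLCs. With that scaling, under which 292 IAP copies were tested, 5.67% of all copies rose and 5.75% fell in mES cells. In EpiLCs 7.54% of all rose and 6.73% fell. The counts of IAP copies that rose and fell thus depended on how the general rise of TE copies in QKO was treated.

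**Figure D3:**
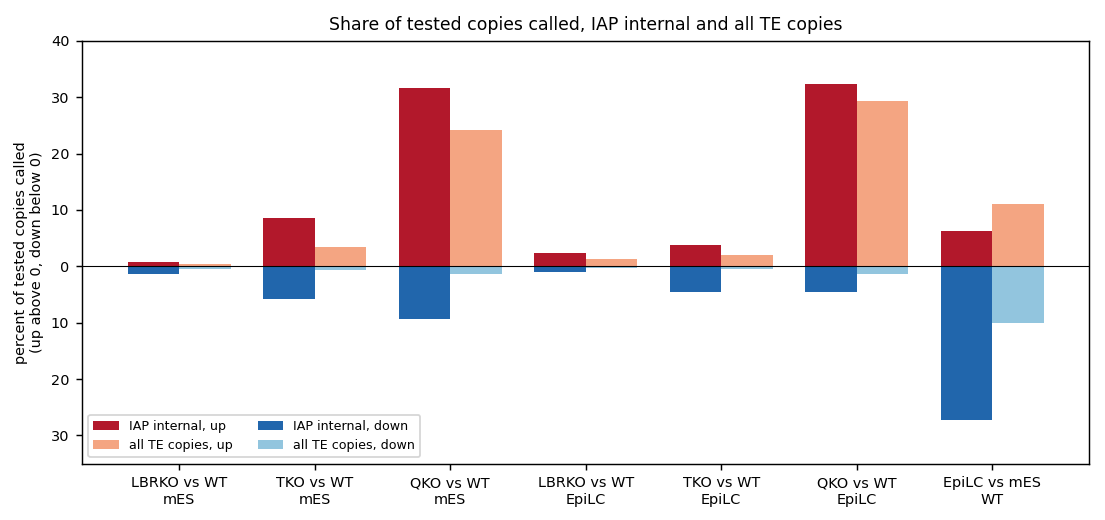
Percent of tested copies called (y axis; rises above 0, falls below 0) in 7 comparisons (x axis) for the 290 IAP internal copies (dark bars) and all 131824 tested TE copies (light bars). The dark bars for falls are longer than the light ones in each comparison, with 9.31% against 1.36% in QKO mES cells, and in WT EpiLCs against WT mES cells they reach 27.2%.

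By family, 22 of 32 IAPEy-int copies rose in QKO mES cells and 1 fell (median 1.68), 11 of 13 IAP-d-int copies rose (median 2.16), 9 of 17 IAPLTR3-int copies (1.50), 10 of 23 IAP1-MM_I copies (1.04), 7 of 16 IAPEY3-int copies and 2 of 14 IAPEY4_I copies. IAPEz-int was the exception with 31 rises and 25 falls among 173 copies and a median of 0.48, and it held 25 of the 27 falls. In QKO EpiLCs 16 of 23 IAP1-MM_I copies rose (median 2.09), 22 IAPEy-int copies, 41 IAPEz-int copies with 13 falls, 5 IAPEY3-int copies, 4 IAP-d-int copies, 4 IAPLTR3-int copies and 2 IAPEY4_I copies. The copies that rose at both stages, against WT libraries of each stage, numbered 57, which is 62% of those in mES cells and 60.6% of those in EpiLCs. All 13 copies that fell in EpiLCs were among the 27 that fell in mES cells. Calls at both stages were not counted over all tested copies. Whether this overlap is particular to IAP copies was therefore not tested.

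**Figure D4:**
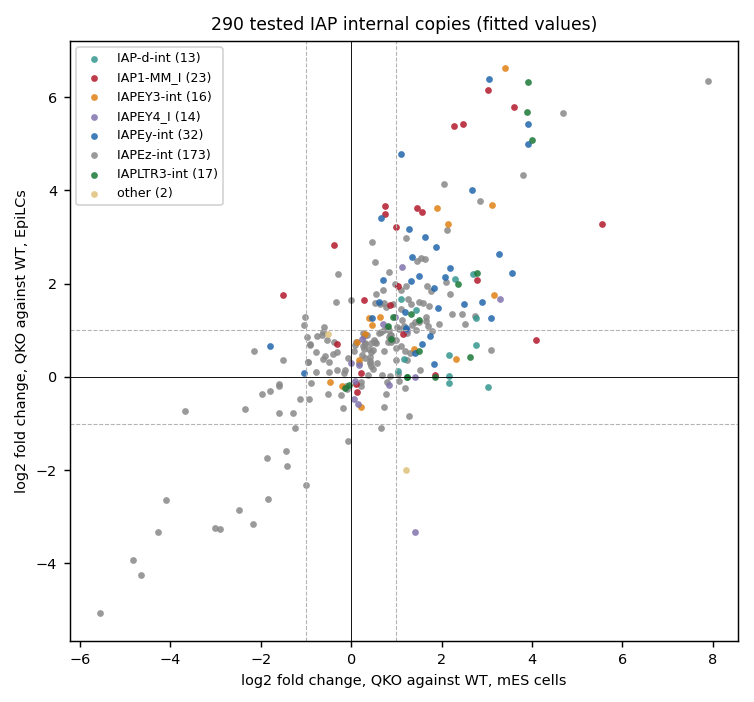
Fitted log2 fold change of QKO against WT in mES cells (x axis) and in EpiLCs (y axis) for the 290 tested IAP internal copies, colored by family with the number of copies in brackets; dashed lines mark 2-fold. Points both right of and above the dashed lines are of 7 families, while the lower left corner holds IAPEz-int copies.

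The positions of the copies are given as shares. In QKO mES cells 44.6% of the copies that rose were intergenic and 23.9% overlapped an exon, whereas 18.5% of those that fell were intergenic and 55.6% overlapped an exon. In QKO EpiLCs the copies that rose were 36.2% intergenic and 30.9% exonic. Chromosome 8, of which TKO cells have an extra copy, held 14.8% of the 27 falls in QKO mES cells, against 5.17% of the tested copies. These shares were not tested, and the lists hold several fragments of some loci.

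In TKO mES cells 25 of 290 copies rose (3.48% of all tested copies did) and 17 fell (0.689% of all did), of which 29.4% lay on chromosome 8. IAPEz-int had 9 rises and 16 falls, IAPEy-int 5 rises and 1 fall, IAP1-MM_I 4 rises, IAPEY3-int and IAPLTR3-int 3 each and IAP-d-int 1. In TKO EpiLCs 11 rose (2.07% of all) and 13 fell (0.557% of all). Of the falls in TKO, 12 were common to both stages, and of the rises 7, again without a count over all tested copies. In LBRKO mES cells 2 of 290 rose (0.409% of all) and 4 fell (0.457% of all), and in LBRKO EpiLCs 7 rose (1.21% of all) and 3 fell (0.287% of all). The counts of the single mutants rested on few libraries. Without replicate 7 of every group 7 copies rose in LBRKO mES cells (2.26% of all), and with WT replicates 1 to 4 alone 9 rose (3.44% of all). Without replicate 1, 3, 4, 6 or 8 of every group it was 0 or 1 (0.112% to 0.384% of all). Without replicate 4 the 25 rises in TKO mES cells became 16 (2.28% of all). Without replicate 2 or 3 the 11 in TKO EpiLCs became 7 (1.44% or 1.76% of all). In LBRKO EpiLCs 2 copies rose without replicate 3 or 4 (0.506% or 0.687% of all), and 1 fell without replicate 2 (0.141% of all). The shares over all copies were thus also higher where these counts were higher, and lower where they were lower.

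QKO against TKO gave 12 rises of 290 in mES cells (1.29% of all tested copies) and 64 in EpiLCs (12.6% of all). With scaling from the single copies the numbers were 4 (0.4% of all) and 26 (3.26% of all). The 64 were 27 copies of IAPEz-int, 13 of IAP1-MM_I, 11 of IAPEy-int, 7 of IAPLTR3-int and 3 of IAPEY3-int, with the rest in other families. Without replicate 1, 2 or 4 of every group the 64 became 42, 39 or 37 (5.94%, 6.31% or 5.98% of all). Without replicate 2, 3 or 4 the 12 became 7, 4 or 6 (0.32%, 0.438% or 0.436% of all).

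A locus on chromosome 7 was read at a different level in each genotype of mES cells. IAPEy-int_dup179, whose start is shown above, is a whole 7517 bp internal sequence between 2 LTRs of the IAPEY2_LTR family at chr7:6619682-6627198 on the plus strand, intergenic, 45281 bp from the nearest coding gene, the olfactory receptor gene *Or5bw2*. In WT mES libraries it had 0.474, 1.10 and 1.28 CPM (lowest, median, highest). LBRKO mES libraries had 1.81, 2.14, 1.42 and 2.13 CPM, TKO 4.76, 4.57, 4.60 and 8.26 CPM, and QKO 9.52, 14.3, 24.8 and 12.6 CPM. The 4 genotypes formed steps without overlap, and the log2 fold changes against WT were 0.88 ± 0.23 in LBRKO (adjusted p = 0.0319, under 2-fold), 2.45 ± 0.22 in TKO (adjusted p = 3.38e-15) and 3.91 ± 0.22 in QKO (adjusted p = 5.93e-27, edgeR). QKO was above TKO by 1.46 ± 0.25 (adjusted p = 8.21e-05, edgeR).

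In EpiLCs the same copy was low in all but QKO. WT EpiLC libraries had 0.0225, 0.136 and 0.176 CPM, LBRKO 0.204, 0.230, 0.188 and 0.149 CPM and TKO 0.0441, 0.497, 0.382 and 0.273 CPM. QKO EpiLC libraries had 2.99, 3.55, 3.60 and 4.99 CPM, above every other EpiLC library (5.00 ± 0.28 against WT, adjusted p = 4.87e-27, and 3.61 ± 0.33 against TKO, adjusted p = 2.68e-14, edgeR). The passage to EpiLCs lowered it in WT by 3.10 on the log2 scale.

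A second locus lies upstream of it on the same strand, at chr7:6608570-6614825, and is made of 5 fragments annotated as IAPEY3-int, IAPEy-int and IAPLTR3-int between LTRs of the same IAPEY2_LTR family. Its first fragment, IAPEY3-int_dup444, had 0.0312, 0.175 and 0.457 CPM in WT mES cells and 1.56, 1.84, 3.22 and 1.99 CPM in QKO. In EpiLCs it had 1 count in the 8 WT libraries together and 0.504, 0.640, 0.688 and 0.869 CPM in QKO. IAPEy-int_dup178 in the same locus had 0 counts in WT and LBRKO EpiLCs, which makes QKO at least 29.2-fold higher than WT with a floor of 3 counts over the group. Since fragments of 1 locus share transcripts, the calls for IAPEY3-int, IAPEy-int and IAPLTR3-int copies here are not separate observations.

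IAPEy-int_dup236 (2718 bp, chr9:13665918-13668635, minus strand) lies in an intron of *Mtmr2*, which encodes a phosphoinositide phosphatase, on the opposite strand. It had 0.818, 1.24 and 1.88 CPM in WT mES cells, 1.51, 0.943, 1.70 and 1.93 CPM in LBRKO and 2.11, 2.78, 1.59 and 1.97 CPM in TKO. QKO mES libraries stood alone at 9.75, 11.0, 9.58 and 12.4 CPM, 5.06-fold above TKO (2.34 ± 0.29, adjusted p = 1.46e-08, edgeR) and 3.08 ± 0.23 above WT on the log2 scale (adjusted p = 2.44e-19). The QKO change exceeded the sum of both single changes by 2.07 ± 0.38 (adjusted p = 0.000336, edgeR). In EpiLCs QKO had 1.58, 1.92, 2.62 and 2.33 CPM against 0.449, 0.752 and 1.91 CPM in WT, with overlap (1.27 ± 0.25), and the QKO change was smaller there by 1.81 ± 0.36 (adjusted p = 0.000481, edgeR).

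IAP1-MM_I_dup385 (994 bp, chr17:34764238-34765231, plus strand) showed the reverse order of stages. It lies between IAP1-MM LTRs and overlaps exons of the annotated transcript Gm64873 on the same strand and of the pseudogene *Btnl7-ps* on the other, so these cannot be told apart by counts without strand. WT EpiLC libraries had 0.0294, 0.0670 and 0.135 CPM, LBRKO 0.0908, 0.102, 0.167 and 0.128 CPM, TKO 0.177, 0.391, 0.268 and 0.394 CPM, and QKO 7.06, 5.47, 5.83 and 5.91 CPM. QKO was 71.7-fold above WT (6.16 ± 0.28, adjusted p = 4.08e-33, edgeR) and 4.26 ± 0.32 above TKO on the log2 scale (adjusted p = 3.06e-18). In mES cells it had 0.203, 0.337 and 0.565 CPM in WT, 1.22, 1.32, 1.27 and 1.42 CPM in TKO and 2.7, 3.29, 2.75 and 2.78 CPM in QKO, steps that did not overlap. The QKO change was larger in EpiLCs by 3.14 ± 0.40 (adjusted p = 1.21e-08, edgeR).

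IAP1-MM_I_dup315 (294 bp, chr11:97962533-97962826, intergenic and without an IAP LTR beside it) fell in LBRKO mES cells and rose in QKO EpiLCs. It had 0.941, 1.25 and 2.21 CPM in WT mES cells and 0.383, 0.207, 0.340 and 0.401 CPM in LBRKO, below every WT library (-2.04 ± 0.28, adjusted p = 3.81e-07, edgeR). QKO mES cells were not called (0.76). In EpiLCs it had 0.162, 0.293 and 0.629 CPM in WT and 4.28, 4.70, 4.39 and 4.20 CPM in QKO (3.66 ± 0.24, adjusted p = 1.1e-22, edgeR). IAP1-MM_I_dup237, on chromosome X opposite *Xk*, the gene of a membrane protein linked to the Kell blood group, was also lower in LBRKO mES cells (0.0426, 0.0460, 0.127 and 0.0501 CPM against 0.268, 0.406 and 0.717 CPM in WT, -2.73 ± 0.48). This copy also overlaps an annotated gene of its own strand that was not among the genes tested. IAPEY3-int_dup1797 on chromosome 13 was at 0.0639, 0.0690, 0.0424 and 0.0751 CPM in LBRKO against 0.201, 0.437 and 0.724 CPM (-2.69 ± 0.54), and against WT replicates 5 to 8 alone it was at -2.07 (adjusted p = 0.106, edgeR).

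**Figure D5:**
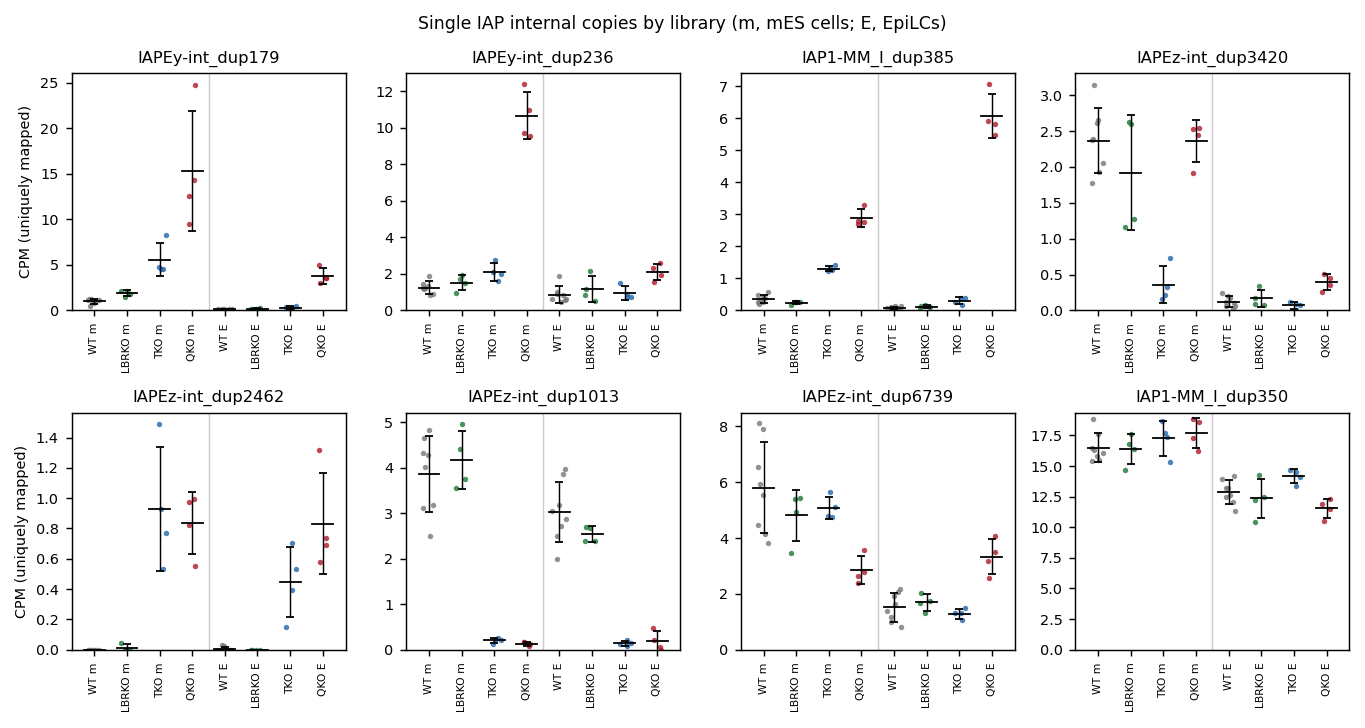
CPM from uniquely mapped reads (y axis, linear, from 0) of 8 single IAP internal copies in every library of the 8 groups (x axis; m, mES cells; E, EpiLCs); points are libraries, bars the mean and SD. IAPEy-int_dup179 and IAPEy-int_dup236 are highest in QKO mES cells, IAP1-MM_I_dup385 in QKO EpiLCs, IAPEz-int_dup1013 is near 0 in TKO and QKO, and IAP1-MM_I_dup350 in a host exon differs little between genotypes.

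Several IAPEz-int copies parted the libraries by line instead of by stage. There were 4 copies, in 3 loci, that were lower in every TKO and QKO library of both stages than in every WT and LBRKO library (1.38% of 290, against 0.125% of all tested copies), and 3 copies that were higher (1.03%, against 0.346%). The lower ones were IAPEz-int_dup1013, IAPEz-int_dup1014, IAPEz-int_dup1355 and IAPEz-int_dup5908, and the higher ones IAP1-MM_I_dup55, IAPEz-int_dup2462 and IAPEz-int_dup3508. TKO and QKO cells share both the lamin deletions and their origin from a line other than that of WT and LBRKO cells, so for these copies loss of lamins and a difference between lines cannot be told apart.

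IAPEz-int_dup1013 and IAPEz-int_dup1014 are the 2 parts of a locus at chr2:154196577-154201114 opposite *Cdk5rap1*, which encodes a tRNA methylthiotransferase. Both overlap an annotated exon. Both also overlap an annotated gene of their own strand that was not among the genes tested. IAPEz-int_dup1013 had 2.49, 4.14 and 4.82 CPM in WT mES cells and 3.75, 3.56, 4.41 and 4.96 CPM in LBRKO. TKO mES libraries had 0.132, 0.214, 0.265 and 0.219 CPM and QKO 0.162, 0.0766, 0.118 and 0.172 CPM (-4.19 ± 0.32, adjusted p = 1.29e-18, and -4.81 ± 0.35, adjusted p = 2.89e-20, edgeR). In EpiLCs the QKO libraries had 0.216, 0, 0.0655 and 0.476 CPM against 2.00, 2.96 and 3.96 CPM in WT (-3.92 ± 0.32). The copy was thus low in TKO and QKO at both stages.

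IAPEz-int_dup2462 was the counterpart. It lies at chr6:28927774-28928997 on the minus strand, opposite *Snd1*, which encodes a protein with nuclease-like domains, and its locus has an IAPLTR1_Mm LTR on both sides. The copy overlaps an annotated exon, and an annotated gene of its own strand that was not among the genes tested. It had 0 counts in the 8 WT mES libraries, and 1.49, 0.928, 0.530 and 0.767 CPM in TKO and 0.975, 0.996, 0.550 and 0.823 CPM in QKO mES cells. This is at least 90-fold higher in TKO and at least 82.5-fold higher in QKO, with a floor of 3 counts over the WT group. These bounds hold for this copy and not for its locus, which has 2 fragments and was read in WT. The whole locus had 110 counts in WT mES cells, at a mean of 0.356 ± 0.134 CPM. Its mean was 1.51 CPM for TKO mES cells, while that of QKO was 1.36 CPM. In EpiLCs IAPEz-int_dup2462 stood at 0.706, 0.533, 0.153 and 0.394 CPM for TKO. The QKO EpiLC libraries had 0.576, 0.736, 0.688 and 1.32 CPM, and LBRKO had 0 counts. IAP1-MM_I_dup55, an intergenic copy on chromosome 3, had 6 counts in all WT mES libraries and 0 in LBRKO, and 0.892, 0.357, 0.383 and 0.658 CPM in TKO and 0.845, 0.805, 1.85 and 1.10 CPM in QKO mES cells (QKO against WT 5.55 ± 0.55, adjusted p = 1.82e-13, edgeR).

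Another fall lay in a host intron. IAPEz-int_dup3247 and IAPEz-int_dup3248 form a locus at chr8:23041555-23047938 in an intron of *Slc20a2*, which encodes a phosphate transporter, on the same strand. IAPEz-int_dup3247 had 0.0312, 0.129 and 0.314 CPM in WT mES libraries and 0 counts in TKO and QKO mES cells, at least 6.65-fold and 6.2-fold lower. In EpiLCs it had 0.247, 0.371 and 0.606 CPM in WT, 0 counts in TKO (at least 14.5-fold lower) and 1 count in QKO. The host gene itself stood at -0.22 in QKO mES cells and -0.29 in QKO EpiLCs and was not called. The locus as a whole parted the libraries by line as well. Over both stages it had at most 0.0884 CPM in TKO and QKO libraries and at least 0.149 CPM in WT and LBRKO libraries. Here too, loss of lamins and a difference between lines cannot be told apart.

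IAPEz-int_dup3420 (1311 bp, chr8:95346803-95348113, minus strand) overlaps an exon of *Rspry1*, a gene of the opposite strand whose protein has RING finger and SPRY domains. It was low in TKO mES cells, with 0.165, 0.214, 0.324 and 0.731 CPM, and not in QKO, with 2.53, 2.45, 2.55 and 1.92 CPM, against 1.77, 2.38 and 3.15 CPM in WT. The LBRKO libraries, with 1.28, 1.17, 2.63 and 2.60 CPM, fell into pairs. QKO was 2.72 ± 0.38 above TKO on the log2 scale (adjusted p = 5.69e-07, edgeR), 1 of the 12 such rises. In WT EpiLCs it had 0.0219, 0.108 and 0.239 CPM, lower than in WT mES cells by 4.25 on the log2 scale.

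More IAP copies fell than rose in the passage of WT cells from mES cells to EpiLCs. Of 290 copies 79 fell (27.2%), where 10% of all tested copies did, and 18 rose (6.21%), where 11.0% of all did. Of the 79, 28 were IAPEz-int, 24 IAPEy-int, 8 IAPLTR3-int, 6 IAP1-MM_I and 5 IAPEY3-int copies, and 55.7% were intergenic. IAPEz-int_dup6739, on the strand opposite *Nrros*, a regulator of TGF-β, and the IAPEz-int copy with the most unique reads, had 3.81, 5.75 and 8.13 CPM in WT mES cells and 0.808, 1.49 and 2.18 CPM in WT EpiLCs. In QKO this copy had 2.63, 3.56, 2.79 and 2.40 CPM in mES cells and 2.56, 4.06, 3.50 and 3.17 CPM in EpiLCs, so that its levels at both stages overlapped. A group of fragments near the start of chromosome 18 was read in mES cells and hardly in EpiLCs: IAPLTR3-int_dup1712 had 0.0724, 0.236 and 0.312 CPM in WT mES cells and 0 counts in WT EpiLCs (at least 21.5-fold lower), and 0.227, 0.613, 1.06 and 0.172 CPM and 0 counts in QKO (at least 20.6-fold lower).

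Among the copies that rose in WT EpiLCs, IAPEz-int_dup2034 went from 0.217, 0.280 and 0.654 CPM to 1.06, 1.52 and 2.08 CPM (2.13 ± 0.22, adjusted p = 2.48e-13, edgeR) in an exon of the transcript Gm57315 of the same strand, which itself rose by 1.94. IAP-d-int_dup50, opposite the blood group transferase gene *Abo*, had at most 0.164 CPM in WT mES cells and 0.197, 0.318 and 0.743 CPM in WT EpiLCs (3.01 ± 0.50). The QKO change of single copies was larger in EpiLCs than in mES cells for 15 of 290 copies (1.42% of all tested copies). It was smaller for 3 (0.589% of all), or 1 without replicate 3 or 4 of every group (0.36% or 0.295% of all). In QKO cells alone, IAP1-MM_I_dup10 in an exon of the transcript Gm28321 went from 0.0325, 0.0766, 0 and 0.0343 CPM in mES cells to 0.756, 0.767, 0.884 and 0.785 CPM in EpiLCs (4.35 ± 0.85, adjusted p = 5.03e-05, edgeR), and Gm28321 rose by 5.23.

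Genes that act on IAP chromatin, DNA methylation or RNA were read from a list of 46. In QKO mES cells 3 of 46 rose, against 10.6% of all 23399 genes tested: *Dnmt3l*, a cofactor of de novo DNA methyltransferases (2.28), *Piwil2*, a piRNA-binding protein of the germline (1.81), and the KRAB zinc finger gene *Zfp429* (2.95). The same 3 genes rose in TKO mES cells, at 1.32, 1.12 and 3.11 and against 2.68% of all genes. In LBRKO mES cells *Dnmt3l* rose (2.88, against 3.06%), to a mean of 171 CPM where QKO had 112.6 CPM, and 2 genes fell (3.25% of all did), *Dnmt3c* and *Mael*, of which 1 was called with either set of 4 WT replicates alone. In QKO EpiLCs 7 of 46 rose, against 13.0% of all genes: *Zfp429* (2.45), *Dnmt3l* (2.07), *Morc1*, a germline repressor of transposons (1.93), the KRAB zinc finger gene *Zfp989* (1.53), *Tex19.1*, a germline gene that restrains retrotransposition (1.50), *Piwil2* (1.39) and *Tet1*, a 5-methylcytosine dioxygenase (1.02). In LBRKO EpiLCs 3 of 46 rose, *Dnmt3l* (2.12), *Morc1* (1.78) and *Tet2* (1.30), against 3.04% of all genes, and in TKO EpiLCs 1 rose, *Zfp429* (1.95), against 1.44%. The corepressor gene *Trim28* and the H3K9 methyltransferase gene *Setdb1* were not called in QKO at either stage. *Trim28* overlapped WT at both stages, and *Setdb1* did not. In mES cells *Setdb1* was higher in QKO, at 256 to 274.8 CPM against 142.6 to 177.2 CPM in WT. In EpiLCs it was lower in QKO, at 143.7 to 162.3 CPM against 183.3 to 219.6 CPM in WT. The median of the list in QKO was 0.00 in mES cells and -0.06 in EpiLCs, and 0.01 and -0.01 over all genes.

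In WT EpiLCs against WT mES cells 8 of 46 rose (18.2% of all genes did) and 4 fell (12.9% of all did). The 8 were the de novo methyltransferase genes *Dnmt3a* (4.04), *Dnmt3b* (4.32) and *Dnmt3c* (2.05), with *Dnmt3l* (2.65), the piRNA pathway genes *Mael* (4.22) and *Piwil2* (1.81), the silencing complex gene *Pphln1* (2.01) and the H3K9 methyltransferase gene *Suv39h1* (1.38). The 4 were *Tet2*, a 5-methylcytosine dioxygenase (-3.30), the RNA helicase gene *Mov10* (-2.98), *Morc1* (-2.85) and the cytidine deaminase gene *Apobec3* (-1.27).

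Chromosome Y holds 19.9% of the IAP internal copies but gave 0.51% of their unique counts. The summed level of copies on chromosome Y was 1.22 ± 0.295 CPM for WT and 1.67 ± 0.341 CPM for QKO in mES cells, and 0.901 ± 0.336 CPM for WT and 2.04 ± 0.403 CPM for QKO in EpiLCs, at 15 to 98 counts per library. The summed level of 7 Y-linked genes was 140.3 to 184.3 CPM in WT mES libraries and 267 to 285.2 CPM in QKO, and 124.5 to 171.3 and 226.6 to 254 CPM in EpiLCs. Of the 7, *Kdm5d*, *Zfy1* and *Zfy2* rose in QKO at both stages, and *Usp9y* fell in QKO EpiLCs (-1.11, where 8.16% of all genes fell). *Kdm5d*, an H3K4 demethylase, went from 0.449 to 19.3 CPM in mES cells. The part of the share of cells with a chromosome Y in the values of IAPEY3-int and IAPLTR3-int was not tested.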

How the data were processed

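Total RNA of 40 libraries was measured. The deposited tables hold raw counts that were not normalized. Reads were trimmed by the authors (cutadapt 2.5), aligned to GRCm39 (STAR 2.7.10a) and, where they mapped uniquely, counted over genes and single TE copies (featureCounts 1.6.4). SAMtools 1.10 was also used. Families were counted by TEcount from alignments with many positions per read. The library kit keeps strand, but how the counting treated strand is not given in the sources used here, and a copy and a gene on the other strand cannot be told apart by counts.

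The members, gene lists and tests were chosen with earlier results of these data known. All 40 libraries were fitted in R 4.3.3 with edgeR 4.0.16 (quasi-likelihood test, group means, low counts removed by filterByExpr, Benjamini-Hochberg adjustment over all rows): families with the genes of their table under TMM scaling, and copies with the library sizes and TMM factors of the gene table. LTRs, genes and loci were matched with GenomicRanges 1.54.1, using the GENCODE annotation of GRCm39. The fits were tested on simulated counts, in which falls of single copies were called less often than rises of the same size, so counts of rises and falls are each to be read against their own background. All families are named. Named copies were, per comparison, those with the 5 highest and 5 lowest log2 fold changes for the WT passage from mES cells to EpiLCs and for QKO against WT, and 3 elsewhere, among called copies without overlap between the groups and with a mean of at least 0.2 CPM in the higher group, and the 5 copies with the highest mean. IAPEz-int_dup5908 and the targeted and listed genes are named besides, the former after its values were seen. Alternatives were DESeq2 1.42.0, other scaling, filters, WT libraries, thresholds and read sets, and leaving out replicates. Copies on unplaced scaffolds were counted but have no gene annotation here. No correction was made for the share of cells with chromosome Y or an extra chromosome 8.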

Additional observations from a re-analysis of the deposited data

Results flagged for a closer look

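A library far from the others of its group (its gap to the nearest over the group's range above Dixon's 95% value) was found in 7 of 88 sets of values, the levels of the 10 families and their sum in each of the 8 groups, where chance flags about 5%. WT mES replicate 7 was such a library for 3 families: IAP-d-int at 11.6 CPM, IAPEY4_I at 14.8 CPM and IAPLTR3-int at 8.36 CPM. IAPLTR3-int was also high in QKO mES replicate 3, at 21.6 CPM. IAP1-MM_I stood at 7.83 CPM in LBRKO EpiLC replicate 3, and IAPEy-int at 21.7 CPM in LBRKO EpiLC replicate 1 and, as the lowest of its group, at 35.8 CPM in TKO mES replicate 2.

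The change of QKO against WT differed between EpiLCs and mES cells by an interaction term for IAP1-MM_I, by 1.31 on the log2 scale. Among single copies it was higher in EpiLCs for 15 (1.42% of all tested copies) and lower for 3 (0.589% of all).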

How the results depend on the processing

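Counts of families called were the same with RLE scaling, DESeq2, no filter on low counts and scaling from genes alone, and the counts of the gene list, run with RLE scaling and with either set of WT replicates, stayed within 1.5 times except in LBRKO mES cells, with 2 rises against WT replicates 5 to 8 and 1 fall against either set. With WT replicates 1 to 4 alone families that rose went from 0 to 1 in TKO mES cells and from 2 to 1 in LBRKO EpiLCs. Copies that rose went from 2 to 9 in LBRKO mES cells (3.44% of all copies) and 11 to 7 in TKO EpiLCs (1.17%). Copies that fell went from 17 to 10 in TKO mES cells (0.483%) and 27 to 14 in QKO mES cells (1.24%). In EpiLCs falls went from 3 to 5 in LBRKO (0.791%) and 13 to 7 in TKO (0.397%). With WT replicates 5 to 8 alone families rose in 1 case in TKO EpiLCs and 2 exceeded the sum in mES cells. Copies that rose were then 1 in LBRKO mES cells (0.106% of all copies) and 2 in LBRKO EpiLCs (0.576%). With only the groups compared 1 family rose in TKO EpiLCs. The labels number replicates alike in all groups, but same-numbered libraries deviated together only weakly (median r = 0.07 over 116 pairs, from -0.50 to 0.73, against -0.03 over 572 other pairs), so the numbers were not taken as pairing. With a replicate block families that rose were 1 in TKO mES cells and 0 in LBRKO EpiLCs (IAPEy-int at 0.98, IAPEY5_I at 1.21). Copies that rose were then 10 in LBRKO mES cells (2.99% of all copies) and 14 in LBRKO EpiLCs (2.83%). For QKO against TKO mES cells they were 20 (2.6%).

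The 1 family below the sum in EpiLCs, IAPEY5_I, became 0 with WT replicates 1 to 4, a replicate block or any unique counts, where its value turned to 1.29 summed, 1.29 without chromosome Y and 1.03 outside genes, and ran from 0 to 1 without single replicates. With summed unique counts, with or without chromosome Y, families called were 1 in LBRKO EpiLCs, 0 and 1 above the sum in mES cells and EpiLCs, 0 for the stage difference in QKO and 1 for falls from mES cells to EpiLCs in LBRKO. With unique counts outside genes they were 2 in TKO mES cells, 1 in LBRKO EpiLCs, 3 for QKO against TKO mES cells, 2 and 4 above the sum, and 1 and 4 for falls from mES cells to EpiLCs in LBRKO and QKO. Scaling from single copies gave 1 copy risen in LBRKO mES cells (0.234% of all copies), 41 in QKO mES cells (5.67%) and 48 in QKO EpiLCs (7.54%). For QKO against TKO it gave 4 (0.4%) and 26 (3.26%). Copies fallen were 50 in QKO mES cells (5.75%), 6 in LBRKO EpiLCs (0.494%) and 28 in QKO EpiLCs (6.73%). With all 953633 copies of at least 10 counts, 3280 were IAP copies. Of these 169 rose in QKO mES cells (5.35% of all copies did) and 181 in QKO EpiLCs (6.29% of all). Rises were 1 in LBRKO mES cells (0.0343%), 6 and 38 for QKO against TKO (0.0811% and 0.967%) and 62 in the WT passage (4.86%). Falls were 22 in QKO EpiLCs (0.231%), 154 in the WT passage (3.56%) and 1 for the stage difference (0.064%). Merging fragments to loci gave 11 rises in LBRKO EpiLCs (1.22% of all). At a 10-fold threshold copies that rose were 0, 4 and 13 in LBRKO, TKO and QKO mES cells, 0, 3 and 25 in EpiLCs, 0 and 15 for QKO against TKO, 0 in the WT passage and 1 for the stage difference, and copies that fell 0, 5 and 6, then 0, 8 and 4, 19 and 0. Over all 131824 tested copies such rises numbered 33, 1218 and 2571 in mES cells and 157, 538 and 3215 in EpiLCs. For QKO against TKO they were 267 and 2169, in the WT passage 1690 and for the stage difference 559. Falls at this threshold were not counted over all tested copies, so those of IAP copies have no background here.

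Leaving out replicates gave 0 to 1 families in TKO mES cells (1 without WT mES replicate 7 or TKO mES replicate 4), 1 to 2 in LBRKO EpiLCs (1 without LBRKO EpiLC replicate 1), 1 to 2 and 2 to 4 above the sum in mES cells and EpiLCs, 1 to 2 for the stage difference and 1 to 2 falls in the WT passage. Copies that rose were 0 to 7 in LBRKO mES cells (7 without replicate 7), where 0.112% to 2.26% of all copies did. They were 2 to 8 in LBRKO EpiLCs (0.506% to 2.02% of all). In TKO mES cells they were 16 to 31 (2.28% to 4.68%, 16 without replicate 4) and in TKO EpiLCs 7 to 11 (1.41% to 2.27%). For QKO against TKO they were 4 to 16 in mES cells (0.32% to 2.07%, 4 without replicate 3) and 37 to 66 in EpiLCs (5.94% to 15.1%). Copies that fell were 1 to 4 in LBRKO EpiLCs (0.14% to 0.402%) and 1 to 3 for the stage difference (0.295% to 0.752%). IAPLTR4_I in QKO mES cells ran from 0.81 to 1.21. The 53 fold changes of named copies kept their direction in the 737 values recomputed, and 5 of them lost the call in at least 1 (24 values).

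Uniquely mapped reads cover part of each family, 7839 copies had 0 counts, and for these a change was not detectable at this depth. p-values measure the spread between wells of 1 or few lines.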
